A study of Mus musculus with 18 samples.

Results

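The endoplasmic reticulum (ER) chaperones described here are 10 mouse genes: *Hspa5*, *Hsp90b1*, *Calr*, *Canx*, *Pdia3*, *Pdia4*, *Pdia6*, *P4hb*, *Sdf2l1* and *Dnajb11*. They were picked by symbol from 55153 genes in the RNA-seq table and 14348 genes counted in every Ribo-seq library, and all 10 were found in both assays. The choice was made with their ribosome footprint values in 1 *F*-cKO library (replicate 2) in view. For this reason the Ribo-seq contrast of *F*-cKO with Ctrl, and the translational efficiency built on it, are given as a description without a test. The other contrasts did not enter the choice and were tested, although earlier results of all these data were known when the genes were picked. The Ribo-seq and translational efficiency contrasts of *M*-cKO use the same Ribo-seq Ctrl libraries as the untested *F*-cKO contrasts, so they are not independent of them. All 10 genes passed the filter on low counts in every comparison.

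RNA-seq and Ribo-seq (sequencing of ribosome-protected fragments) were performed on cerebral cortices at embryonic day 15.5, with 3 libraries per group and assay and 18 in all. The groups were Ctrl (labelled wild type), *F*-cKO (*Fto* f/f; Emx1-cre, lacking the m6A demethylase gene *Fto*) and *M*-cKO (*Mettl3* f/f; Emx1-cre, lacking the m6A methyltransferase gene *Mettl3*). The strain label is C57BL/6 for every sample, and the study's methods give a mixed background with 129 for the floxed lines. Because *Emx1-Cre* acts in the excitatory lineage of the cortex and whole cortices were lysed, vessels, microglia and interneurons in these samples keep both genes. The labels call the libraries biological repeats but do not name the animals. The study's methods take the Ribo-seq cortices "from 1 L", which is not explained and may mean a single litter, so the spread between Ribo-seq libraries may not cover differences between litters. Fewer cells of a type and less RNA per cell cannot be told apart in such bulk samples.

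ER chaperones fold the secreted and membrane proteins that enter the ER while they are being translated. *Hspa5* (BiP) binds unfolded chains with the help of J-domain partners such as *Dnajb11*, *Hsp90b1* (Grp94) acts later on selected clients, calreticulin and calnexin hold glycoproteins, and protein disulfide isomerases form and rearrange disulfide bonds. When unfolded proteins build up, the unfolded protein response raises transcription of these genes, in part through ATF6, which together with NF-Y binds the ER stress element in their promoters. In the developing cortex the same machinery serves adhesion molecules, receptors and matrix proteins of radial glia and growing neurons.

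The ER stress element is shown first because it was searched in the promoters alone and rests on neither assay. It was already known from promoters of such genes, so its share among the 10 is a description and not a test. Searched as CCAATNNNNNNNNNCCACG on both strands of the window from 250 bases before to 50 bases after the gene start (RefSeq, GRCm38.p6), it was present in 5 of the 10 promoters (*Hspa5*, *Hsp90b1*, *Calr*, *Canx* and *Pdia6*) and in 0.119% of 32851 mouse promoters of the same length. *Hsp90b1* held 2 copies, a number that 0.00304% of all promoters reached. The 6 copies follow, each read in the direction of the element with 20 bases on either side and with its 2 fixed parts, CCAAT and CCACG, in capitals.
Hspa5 (chr2:34772025-34772043, plus strand): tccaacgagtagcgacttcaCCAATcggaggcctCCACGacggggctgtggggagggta
Hsp90b1 distal (chr10:86705638-86705656, minus strand): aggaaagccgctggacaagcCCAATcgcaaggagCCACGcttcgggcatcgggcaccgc
Hsp90b1 proximal (chr10:86705533-86705551, plus strand): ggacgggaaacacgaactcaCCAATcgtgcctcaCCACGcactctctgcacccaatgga
Calr (chr8:84847075-84847093, plus strand): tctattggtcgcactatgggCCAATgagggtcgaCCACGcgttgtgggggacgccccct
Canx (chr11:50325800-50325818, minus strand): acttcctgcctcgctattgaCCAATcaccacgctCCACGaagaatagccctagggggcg
Pdia6 (chr12:17266491-17266509, plus strand): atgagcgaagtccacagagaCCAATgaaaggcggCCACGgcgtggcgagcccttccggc

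The promoter of *Hspa5*, the gene in which this element is best known, is given as the 250 bases before the gene start (chr2:34771840-34772089, plus strand), with the element in capitals.
Hspa5 upstream: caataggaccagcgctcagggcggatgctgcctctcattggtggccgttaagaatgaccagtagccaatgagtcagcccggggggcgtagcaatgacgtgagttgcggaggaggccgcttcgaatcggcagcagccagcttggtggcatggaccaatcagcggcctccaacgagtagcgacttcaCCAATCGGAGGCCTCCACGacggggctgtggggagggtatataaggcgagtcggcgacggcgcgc

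Counting the first base of the gene as position 0, the *Hspa5* copy lay from -65 to -47 and the *Pdia6* copy from -98 to -80. The *Canx* copy lay from -145 to -127 and the *Calr* copy, on the other strand, from -162 to -144. CCAAT alone, the NF-Y box, was found in all 10 promoters and in 37.4% of all promoters, and 9 of the 10 held at least 2 copies, compared with 11.7% of all promoters. CCACG alone was found in 9 of the 10, *Pdia3* being the exception, and in 32.8% of all promoters. Both short motifs overlap the full element by construction. A match describes letters in a window and is not a measured binding site.

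**Figure D1:**
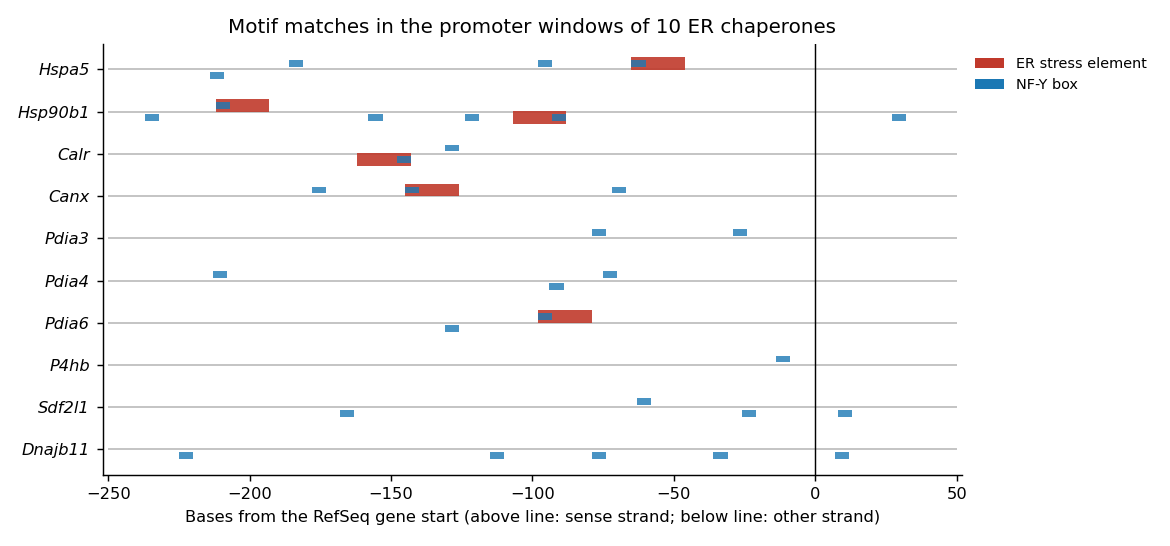
Motif matches in the promoter windows of the 10 genes, plotted by distance in bases from the RefSeq gene start, with red bars for the ER stress element and blue bars for the NF-Y box (above the line for the sense strand, below it for the other strand). The 5 genes with the full element hold 6 copies between -212 and -47, each containing an NF-Y box, while the other 5 genes hold NF-Y boxes alone.

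The RNA-seq libraries held 18504094 to 22592406 counted reads and the Ribo-seq libraries 10973699 to 35853227, the fewest in *F*-cKO replicate 2. Ribo-seq *F*-cKO replicate 2 stood apart from the other libraries: 21.3% of 14326 genes were more than 2-fold above the Ctrl mean, compared with between 0.293% and 9.89% in the other 8 libraries. All Ribo-seq results for *F*-cKO below are therefore given with and without it. The targeted genes were checked first. *Fto* footprints reached at most 4.04 RPKM in *F*-cKO, against at least 17.6 RPKM in Ctrl, and *Fto* mRNA was 3.26, 7.56 and 2.43 FPKM in *F*-cKO replicates 1, 2 and 3 and 8.37 to 11.2 FPKM in Ctrl, so RNA-seq *F*-cKO replicate 2 was closest to Ctrl. For *Mettl3*, the *M*-cKO libraries had fewer footprints (at most 6.78 RPKM, against at least 9.16 in Ctrl) but more mRNA (at least 7.82 FPKM, against at most 6.43 in Ctrl). These values count the whole gene and not the deleted exons. Cortical identity was checked with 8 excitatory neuron markers and 7 radial glia markers, none of which was at 0 in any assay, with summed levels of 762 to 976 FPKM and 527 to 817 FPKM.

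Transcripts of the 10 genes were abundant and nearly level across all 9 RNA-seq libraries. Together they held 0.187% to 0.212% of the counted reads. Levels between genes are compared in FPKM, the authors' unit, which divides fragments by transcript length and library depth. In Ctrl, *Calr* was the highest with 127 ± 7.73 FPKM (SD, n = 3), followed by *Pdia3* with 72.9 ± 4.80, *Pdia6* with 69.6 ± 1.86, *P4hb* with 65.7 ± 1.38, *Canx* with 59.7 ± 4.07, *Hspa5* with 55.1 ± 6.39 and *Hsp90b1* with 49.1 ± 5.57 FPKM. *Pdia4* with 37.9 ± 1.46 FPKM, *Dnajb11* with 19.4 ± 0.360 and *Sdf2l1* with 13.5 ± 0.870 were the lowest. In this order the Ctrl libraries of *Pdia3* overlapped those of *Pdia6*, those of *Canx* overlapped those of *Hspa5*, and those of *Hspa5* overlapped those of *Hsp90b1*. The other neighbours did not overlap.

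Among the luminal Hsp70 and Hsp90 chaperones and their partners, *Hspa5* mRNA was 52.5, 50.4 and 62.35 FPKM in Ctrl, 64.0, 67.45 and 53.9 FPKM in *F*-cKO, and 55.6, 55.4 and 54.5 FPKM in *M*-cKO replicates 1, 2 and 3. *Hsp90b1* mRNA was 48.0, 44.2 and 55.2 FPKM in Ctrl, 55.1, 60.4 and 51.3 FPKM in *F*-cKO, and 45.95, 42.5 and 40.2 FPKM in *M*-cKO. For both genes the *F*-cKO libraries overlapped Ctrl, and for *Hsp90b1* all 3 *M*-cKO libraries lay below all 3 *F*-cKO libraries. *Dnajb11* mRNA, encoding the J-domain partner ERdj3, was 19.4, 18.99 and 19.7 FPKM in Ctrl, 18.2, 18.9 and 16.4 FPKM in *F*-cKO, and 18.5, 18.2 and 17.5 FPKM in *M*-cKO. Both knockouts were below the lowest Ctrl library, but by little. *Sdf2l1*, which encodes a small luminal protein found with ERdj3, ranged from 10.4 to 16.5 FPKM over the 9 libraries, and its 3 groups overlapped.

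Among the lectin chaperones, membrane-bound calnexin (*Canx*) was 60.9, 55.2 and 63.0 FPKM in Ctrl, 58.9, 60.25 and 53.8 FPKM in *F*-cKO, and 51.8, 51.97 and 51.9 FPKM in *M*-cKO, so that every *M*-cKO library was below every Ctrl library. Soluble calreticulin (*Calr*) ranged from 111.8 to 136.3 FPKM and *Pdia3*, encoding the isomerase ERp57 that works with both lectins, from 67.7 to 81.2 FPKM, with all groups overlapping. Among the other disulfide isomerases, *Pdia4* (ERp72) was 36.6, 37.5 and 39.5 FPKM in Ctrl, 41.7, 43.1 and 38.1 FPKM in *F*-cKO, and 46.35, 47.6 and 45.1 FPKM in *M*-cKO. Its *M*-cKO libraries were the 3 highest of the 9. *P4hb*, encoding protein disulfide isomerase itself, was 65.3, 67.25 and 64.6 FPKM in Ctrl, 71.15, 65.2 and 68.9 FPKM in *F*-cKO, and 70.4, 70.99 and 82.7 FPKM in *M*-cKO. All 3 *M*-cKO libraries were above Ctrl, while *F*-cKO overlapped it. *Pdia6* (P5) ranged from 65.95 to 76.0 FPKM over all libraries.

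**Figure D2:**
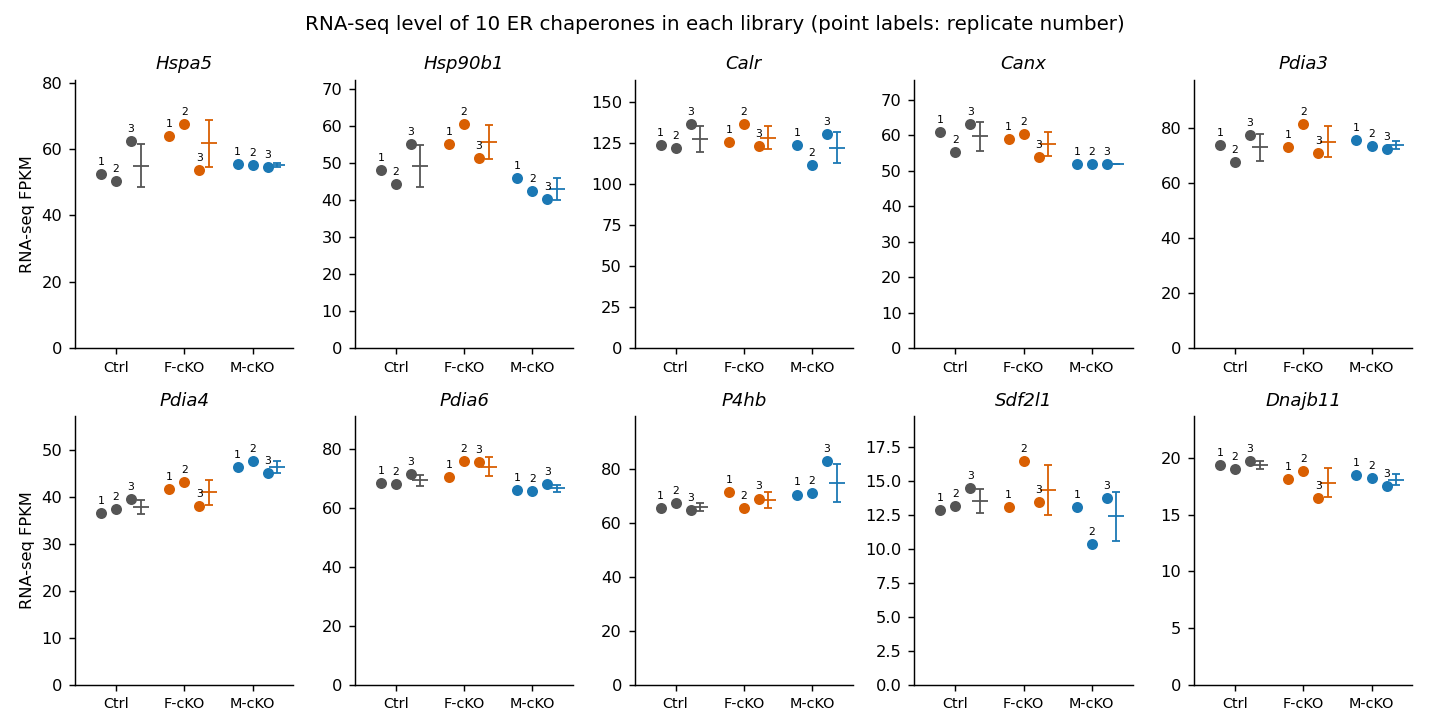
RNA-seq level in FPKM of each gene in the 9 libraries, with points numbered by replicate and bars giving the mean and SD of 3 libraries per group, on axes that start at 0. *Pdia4* is higher and *Canx* lower in all 3 *M*-cKO libraries than in Ctrl, while in *F*-cKO 9 of the 10 genes overlap Ctrl and *Dnajb11* lies just below it.

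The question put to the RNA-seq data was whether loss of either m6A enzyme changed the mRNA of these chaperones. In *F*-cKO none of the 10 was called changed compared to Ctrl (adjusted P below 0.05 in the quasi-likelihood test of edgeR, Benjamini-Hochberg adjustment over 16944 genes), whereas 21.1% of all genes tested were called, 11.5% higher and 9.57% lower. No member reached an unadjusted P below 0.05, and DESeq2 also called 0. The log2 fold changes lay between -0.13 ± 0.07 (SE) for *Dnajb11* and 0.17 ± 0.09 for *Hsp90b1*, with a median of 0.06, compared with -0.01 over all genes. *Dnajb11* was lower without overlap, as were 20.7% of all genes. Leaving out RNA-seq *F*-cKO replicate 2 also left 0 members called.

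In *M*-cKO, *Pdia4* mRNA rose and *Canx* mRNA fell. *Pdia4* had a log2 fold change of 0.28 ± 0.06 (adjusted P = 0.00468, edgeR) and was the only member called higher, against 15.5% of all genes. *Canx* had a log2 fold change of -0.21 ± 0.06 (adjusted P = 0.0265, edgeR) and was the only member called lower, against 14.1% of all genes. The *Pdia4* call held when any 1 library was left out, with adjusted P between 0.00531 and 0.0276 in edgeR, but the *Canx* call was lost without Ctrl replicate 1 or 3 or without *M*-cKO replicate 1 or 2, with adjusted P of 0.0879, 0.113, 0.089 and 0.0749. *P4hb* (0.18 ± 0.07, adjusted P = 0.082, edgeR) and *Hsp90b1* (-0.21 ± 0.08, adjusted P = 0.0853, edgeR) were not called. The other 6 members lay between -0.13 and 0.01 on the log2 scale. *Pdia4* and *P4hb* were higher without overlap, as were 22.6% of all genes, and *Canx*, *Pdia6* and *Dnajb11* lower, as were 22.3%. In the same libraries the summed level of the excitatory neuron markers was 953 to 976 FPKM, compared with 762 to 784 FPKM in Ctrl, and 5 of the 8 were called higher and 2 lower. The radial glia markers summed to 527 to 558 FPKM, compared with 724 to 817 FPKM, a difference carried by *Fabp7*, which was 607, 519 and 654 FPKM in Ctrl and 308, 305 and 304 FPKM in *M*-cKO. Of the 7 radial glia markers 3 were called higher and 2 lower, with a median log2 change of 0.14, among them *Sox2* with 0.90 ± 0.08 (adjusted P = 3.19e-05, edgeR) and *Fabp7* with -0.97 ± 0.08 (adjusted P = 2.56e-05, edgeR). Among other cell types, 2 of 6 erythroid markers, 1 of 6 choroid plexus markers and 1 of 2 tested cartilage markers were called higher and 0 lower, and 0 were called among 7 meningeal, 6 endothelial and 7 microglial markers. The median was 0.56 for choroid plexus, with 6 of 6 above 0, 0.42 for meninges and 0.15 for erythroid markers, of which the embryonic globin gene *Hbb-y* had 3.26 ± 0.74 (adjusted P = 0.00707, edgeR). The part of these shifts in the chaperone values was not tested.

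When the knockouts were compared directly, *Hsp90b1* mRNA was lower in *M*-cKO than in *F*-cKO, with a log2 fold change of -0.38 ± 0.08 (adjusted P = 0.00489, edgeR). It was the only member called, with 14.3% of all genes called lower and 13.1% higher in this comparison, and it stayed called when any 1 library was left out (adjusted P between 0.00335 and 0.0347 in edgeR). Without RNA-seq *F*-cKO replicate 2 its log2 fold change was -0.31. In the same comparison 4 of 7 meningeal markers (median 1.35), 3 of 6 erythroid, 2 of 6 endothelial, 2 of 7 microglial, 1 of 6 choroid plexus and 1 of 2 tested epidermal markers were called higher and 0 of these lists lower. Radial glia had 1 of 7 higher and 3 lower and excitatory neurons 2 of 8 in each direction, and the part of these markers in the *Hsp90b1* value was not tested. *Pdia4* (0.17 ± 0.06, adjusted P = 0.0718, edgeR), *Canx* (-0.16 ± 0.06, adjusted P = 0.0804) and *Pdia6* (-0.16 ± 0.06, adjusted P = 0.08) were not called. With *Hsp90b1*, 3 members were lower without overlap and *Pdia4* was higher, compared with 22.5% and 21.2% of all genes. The comparisons of both knockouts with Ctrl share the 3 Ctrl libraries.

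Footprints gave another order of these genes than mRNA. In Ctrl, measured in RPKM (the same kind of unit for single reads), *Calr* was again the highest with 43.9 ± 6.20 (SD, n = 3), but membrane-bound *Canx* was next with 31.8 ± 2.74. *Pdia3* with 22.5 ± 1.25, *P4hb* with 21.1 ± 0.0651, *Hspa5* with 21.1 ± 3.20, *Hsp90b1* with 20.5 ± 3.62 and *Pdia6* with 19.5 ± 1.75 RPKM followed, and each overlapped its neighbour in this order, while every Ctrl library of *Pdia3* and *P4hb* lay above those of *Pdia6*. *Pdia4* followed with 11.3 ± 1.28, *Sdf2l1* with 6.30 ± 0.570 and *Dnajb11* with 4.73 ± 0.359 RPKM. The 10 genes held 0.0522% to 0.0612% of the counted fragments in Ctrl, a smaller share than their 0.187% to 0.207% of mRNA reads in the same group.

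Translational efficiency (TE), the RPKM of each Ribo-seq library over the mean FPKM of its group, was accordingly low. In Ctrl the median TE of the 10 genes was 0.308, 0.332 and 0.364 in the 3 libraries, below the lower quartile (0.371 to 0.381) of 11739 genes with a mean of at least 1 FPKM, whose medians were 0.847 to 0.870. *Canx* had the highest TE of the 10 in Ctrl (0.497, 0.515 and 0.584) and *Dnajb11* the lowest (0.249, 0.224 and 0.260). *Hspa5* was 0.329, 0.376 and 0.444, and *P4hb* 0.320, 0.322 and 0.321. The scale of TE depends on the reads that each assay's unit is divided by, so its distance from 1 has no meaning of its own.

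In *F*-cKO, footprints on 9 of the 10 genes were far higher in replicate 2 than in any other library. *Hspa5* footprints were 18.1, 20.7 and 24.5 RPKM in Ctrl, 28.0, 22.4 and 29.5 RPKM in *M*-cKO, and 29.5, 154.7 and 22.75 RPKM in *F*-cKO replicates 1, 2 and 3. *Hsp90b1* footprints were 16.6, 21.1 and 23.7 RPKM in Ctrl, 22.6, 24.2 and 29.1 RPKM in *M*-cKO, and 26.8, 190.8 and 22.35 RPKM in *F*-cKO. For both luminal chaperones *F*-cKO replicates 1 and 3 lay among or close to the other groups. *Dnajb11* footprints were 4.82, 4.33 and 5.03 RPKM in Ctrl and 5.67, 21.0 and 4.49 RPKM in *F*-cKO.

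The lectins and their isomerase followed the same pattern. *Calr* footprints were 37.8, 43.7 and 50.2 RPKM in Ctrl, 59.9, 52.8 and 65.45 RPKM in *M*-cKO, and 65.1, 369.8 and 52.1 RPKM in *F*-cKO. *Canx* footprints were 29.7, 30.8 and 34.9 RPKM in Ctrl, 33.7, 28.9 and 39.85 RPKM in *M*-cKO, and 32.4, 173.4 and 32.2 RPKM in *F*-cKO. *Pdia3* footprints were 21.05, 23.4 and 23.0 RPKM in Ctrl, 26.2, 21.9 and 31.2 RPKM in *M*-cKO, and 23.85, 168.8 and 23.0 RPKM in *F*-cKO. Apart from replicate 2, *Canx* and *Pdia3* in *F*-cKO lay within or at most 1 RPKM from the Ctrl range, while *Calr* was above every Ctrl library in all 3.

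For the remaining isomerases, *Pdia4* footprints were 10.15, 10.99 and 12.7 RPKM in Ctrl, 17.3, 14.6 and 16.9 RPKM in *M*-cKO, and 11.7, 85.4 and 10.8 RPKM in *F*-cKO. *Pdia6* footprints were 17.5, 20.2 and 20.7 RPKM in Ctrl, 21.1, 18.1 and 22.5 RPKM in *M*-cKO, and 22.01, 157.5 and 18.65 RPKM in *F*-cKO. *P4hb* footprints were 21.0, 21.15 and 21.1 RPKM in Ctrl, 26.75, 24.1 and 27.4 RPKM in *M*-cKO, and 26.6, 157.6 and 23.3 RPKM in *F*-cKO. *P4hb* was the steadiest gene in Ctrl and lay above Ctrl in all 6 knockout libraries. *Sdf2l1* was the exception among the 10: its footprints were 5.71, 6.84 and 6.34 RPKM in Ctrl, 9.09, 5.80 and 9.13 RPKM in *M*-cKO, and 15.1, 7.97 and 7.84 RPKM in *F*-cKO, with the highest value in replicate 1 and not in replicate 2. It is also the gene with the fewest footprints, 89 counts in *F*-cKO replicate 2 compared with 685 for *Dnajb11* and 10732 for *Calr*.

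**Figure D3:**
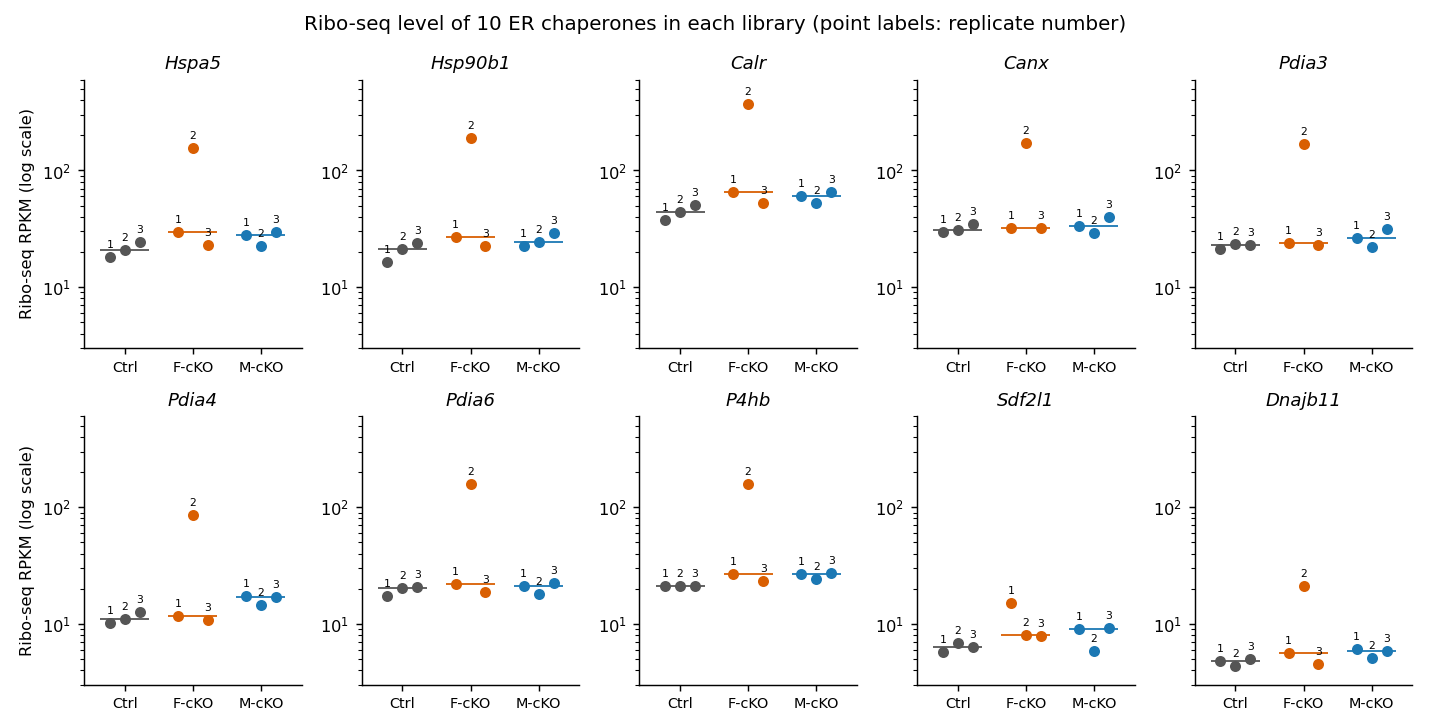
Ribo-seq level in RPKM (log axis) of each gene in the 9 libraries, with points numbered by replicate and a line at the median of each group. *F*-cKO replicate 2 is the highest point for 9 genes, from 21.0 RPKM for *Dnajb11* to 369.8 RPKM for *Calr*, while for *Sdf2l1* it is *F*-cKO replicate 1 with 15.1 RPKM.

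Scaled by TMM and set against the Ctrl mean, the log2 ratio in *F*-cKO replicate 2 was between 2.34 (*Dnajb11*) and 3.42 (*Hsp90b1*) for the 9 genes and 0.53 for *Sdf2l1*. The 9 genes ranked between 137 and 907 of 14326 genes in that library, and *Sdf2l1* ranked 4347. The 10 genes held 0.473% of its counted fragments, compared with 0.0522% to 0.0824% in the other 8 Ribo-seq libraries, and their median TE was 2.28 there, compared with 0.433 and 0.355 in *F*-cKO replicates 1 and 3. The 5 genes with the ER stress element had log2 ratios of 2.64 to 3.42 in this library. Of the 5 without it, *Pdia3*, *Pdia4* and *P4hb* had 3.10, 3.11 and 3.09, and *Dnajb11* and *Sdf2l1* had 2.34 and 0.53. Of the genes outside the 10 that held the element, 10 were tested in Ribo-seq. In *F*-cKO replicate 2, 5 of these were more than 2-fold above Ctrl, compared with 21.3% of all genes. Their median log2 ratio was 1.33, compared with -0.01 over all genes.

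Averaged over the 3 *F*-cKO libraries the fitted log2 fold change of footprints against Ctrl was between 0.74 ± 0.30 (SE) for *Sdf2l1* and 2.11 ± 0.90 for *Hsp90b1*, with a median of 1.83. Without replicate 2 the median was 0.15, and single genes lay between -0.03 for *Pdia4* and 0.83 for *Sdf2l1*, with 0.39 for *Calr*, 0.28 for *Hspa5*, 0.24 for *Hsp90b1* and 0.22 for *P4hb*. *Calr*, *P4hb* and *Sdf2l1* did not overlap Ctrl in any *F*-cKO library, and 3.66% of all genes were higher without overlap in this contrast. For TE the median log2 change of the 10 genes was 1.73 with and 0.10 without Ribo-seq *F*-cKO replicate 2, and only *Sdf2l1* had a larger value without it (0.62 with, 0.75 without). The same 3 genes did not overlap Ctrl in TE, and 5.95% of all genes were higher in this way. Because replicate 2 was in view when the 10 genes were chosen, the shares of 3.66% and 5.95% are no yardstick for them. In RNA-seq *F*-cKO replicate 2 the log2 ratios of the 10 genes to Ctrl lay between -0.04 and 0.30, with a median of 0.14, the highest of the 9 RNA-seq libraries (-0.08 to 0.09 in the others), and 5 of the 10 genes had their highest level there. Whether the RNA-seq and Ribo-seq libraries with the number 2 came from the same animal is not stated in the labels.

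In *M*-cKO, footprints on *Pdia4*, *P4hb* and *Calr* rose compared to Ctrl. *Pdia4* had a log2 fold change of 0.54 ± 0.12 (adjusted P = 0.0277), *P4hb* of 0.32 ± 0.08 (adjusted P = 0.0408) and *Calr* of 0.45 ± 0.12 (adjusted P = 0.0476), all by edgeR over 14314 genes. These 3 of 10 stand beside 7.13% of all genes called higher, and 0 members were called lower, against 7.5% of all genes. All 10 fold changes were above 0, from 0.09 ± 0.10 for *Pdia6* to 0.54 for *Pdia4*, with a median of 0.32 compared with -0.00 over all genes. *Calr*, *Pdia4*, *P4hb* and *Dnajb11* did not overlap Ctrl, as did 18.4% of all genes. Each call was near the threshold: *Calr* and *P4hb* were lost when any 1 library was left out (edgeR, adjusted P of 0.0544 to 0.155 and 0.0514 to 0.155), and *Pdia4* was lost without *M*-cKO replicate 1 or any Ctrl library (0.0501 to 0.119). With the replicate number as a block only *Calr* was still called, at an adjusted P of 0.0489. In these libraries 2 of 6 erythroid and 1 of 4 tested skeletal muscle markers were called higher and 1 of 2 tested epidermal markers lower, led by *Hbb-y* with 3.52 ± 0.47 (adjusted P = 0.00853, edgeR; up to 0.0522 and lost in 1 of 6 fits that left out 1 library). Meningeal, endothelial, microglial and choroid plexus markers had 0 called, with medians of -0.89, -0.58, 0.07 and 0.32. Their part in the footprint values was not tested.

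Setting footprints against mRNA in 1 model over 12 libraries, the TE of *Calr* was higher in *M*-cKO than in Ctrl by 0.59 ± 0.15 on the log2 scale (edgeR interaction of assay and genotype, adjusted P = 0.0462). Its log2 footprints minus mean log2 mRNA, both in CPM (counts divided by library depth, scaled by TMM), were -1.62, -1.42 and -1.22 in Ctrl and -0.85, -0.91 and -0.72 in *M*-cKO. It was the only member called, and 1.89% of all genes were called higher and 1.18% lower. *Hsp90b1* (0.59 ± 0.18, adjusted P = 0.0893), *Dnajb11* (0.45 ± 0.12, adjusted P = 0.0599) and *Hspa5* (0.42 ± 0.16, adjusted P = 0.151) were not called by edgeR. The TE change was above 0 in all 10 genes, from 0.21 for *P4hb* to 0.59, with a median of 0.41 compared with 0.02 over 13208 genes. An unadjusted P below 0.05 was reached by 8 of the 10, compared with 21.5% of all genes, and DESeq2 called 3.

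The separation of the groups depended on the scale. With TMM-scaled CPM all 10 genes had a TE in every *M*-cKO library above every Ctrl library, as did 17.3% of all genes. With the authors' RPKM over FPKM 4 of the 10 did (*Hsp90b1*, *Calr*, *P4hb* and *Dnajb11*), as did 11.6% of all genes, while 21.2% of all genes were lower without overlap on that scale. The *Calr* call was lost in 10 of the 12 fits that left out 1 library, with adjusted P up to 0.126 in edgeR. It was kept without Ribo-seq Ctrl replicate 3 (0.69 on the log2 scale, adjusted P = 0.0175) and without Ribo-seq *M*-cKO replicate 2 (0.63, adjusted P = 0.0444). In Ribo-seq the radial glia markers summed to 981 to 1390 RPKM in *M*-cKO and 1830 to 2080 RPKM in Ctrl. *Fabp7* carried this difference too (985, 639 and 669 RPKM, against 1690, 1640 and 1500), while *Sox2* footprints rose by 1.12 ± 0.15 on the log2 scale (adjusted P = 0.00817, edgeR) and 4 of the 7 markers were above 0, with a median of 0.20. The part of these shifts in the TE values was not tested.

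**Figure D4:**
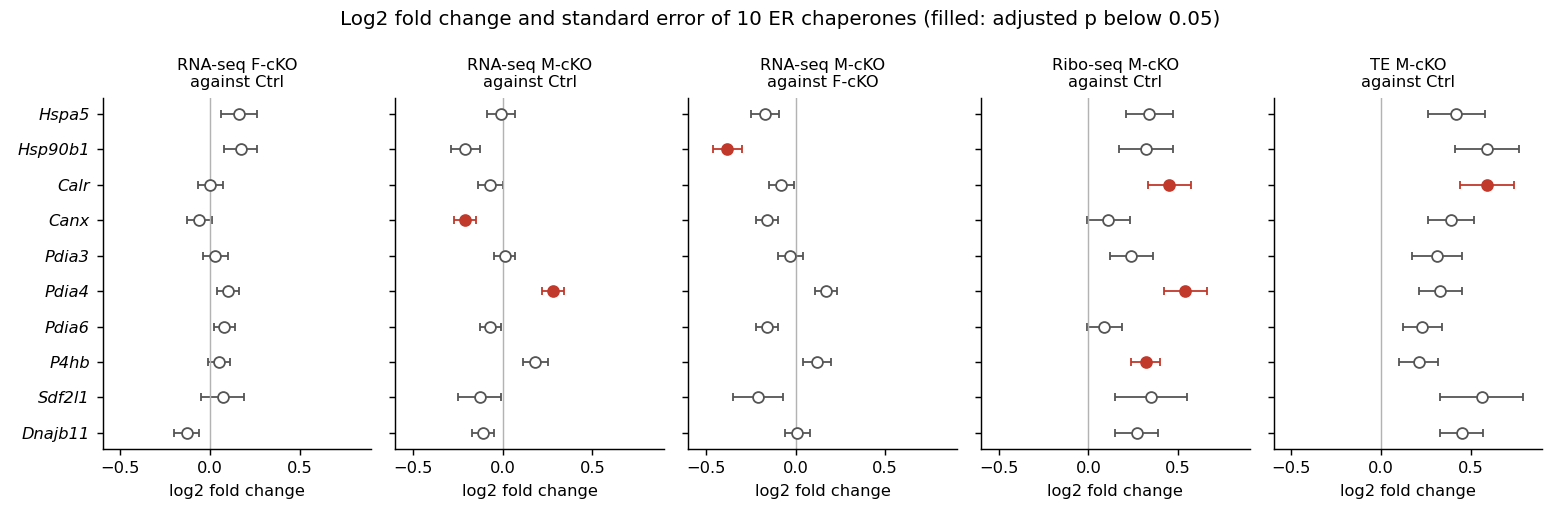
Log2 fold change and standard error of each gene in the 5 tested comparisons, with filled red points for genes called at an adjusted P below 0.05. Footprints and TE in *M*-cKO lie above 0 for all 10 genes, with *Pdia4*, *P4hb* and *Calr* called in Ribo-seq and *Calr* in TE, while in RNA-seq the genes lie on both sides of 0.

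Other gene groups of the secretory pathway showed which of them shared the footprint values of *F*-cKO replicate 2. The lists were written from general knowledge with earlier results of these data known. Of 32 other ER folding factors 30 were more than 2-fold above the Ctrl mean in that library, with a median log2 ratio of 2.46. Over all genes 21.3% passed this cut there. *Serpinh1* (Hsp47, the collagen chaperone) had 3.99, *Mogs* (a glucosidase that trims new glycans) 3.46 and *Hyou1* (a nucleotide exchange partner of BiP) 3.43, whereas *Fkbp2* had 0.04. Of 25 secreted, lysosomal and surface proteins made at the ER, all 25 were more than 2-fold higher, with a median of 2.33, from 1.08 for *Cst3* to 3.5 for *Itgb1*. The median was 1.57 for the translocon and glycosylation genes, with 17 of 26 above 2-fold and values of 3.35 for *Stt3b* and -0.43 for *Srp54a*, a cytosolic subunit of the signal recognition particle. The genes below 2-fold did not all encode cytosolic proteins. The translocon subunit genes *Sec61b* and *Sec61g* had 0.5 and 0.1, and *Spcs2* and *Dad1* had 0.1 and 0.29.

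In the same library 0 of 22 cytosolic chaperones and 1 of 7 mitochondrial chaperones were more than 2-fold above Ctrl, with medians of -0.35 and -0.19. The share over all genes was 21.3%, and it applies to each list below as well. The cytosolic values ran from -0.99 for *Bag3* to 0.17 for *Ptges3*, with *Dnaja1* (0.05) and *Hspa4* (-0.13) next to the highest. The mitochondrial values ran from -1.09 for *Hspe1* to 1.12 for *Clpb*, with *Hspa9* at -0.11 and *Hspd1* at -0.17. The KDEL receptor and ER export list was divided, with a median of -0.11 and 7 of 17 above 2-fold: the membrane cargo receptors *Lman1* (3.32), *Tmed10* (2.70) and *Surf4* (2.19) were high and the cytosolic coat subunit *Sec31a* (-0.70) was not. In the unfolded protein response and ERAD list, 14 of 22 were more than 2-fold higher, among them *Os9* (3.53), *Edem3* (2.67) and *Sel1l* (2.64), and *Chac1* had -2.04. Genes of the transcription factors in this list had 1.07 (*Ddit3*), 0.95 (*Atf6*), 0.43 (*Creb3l2*), -0.06 (*Atf4*) and -0.19 (*Xbp1*).

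**Figure D5:**
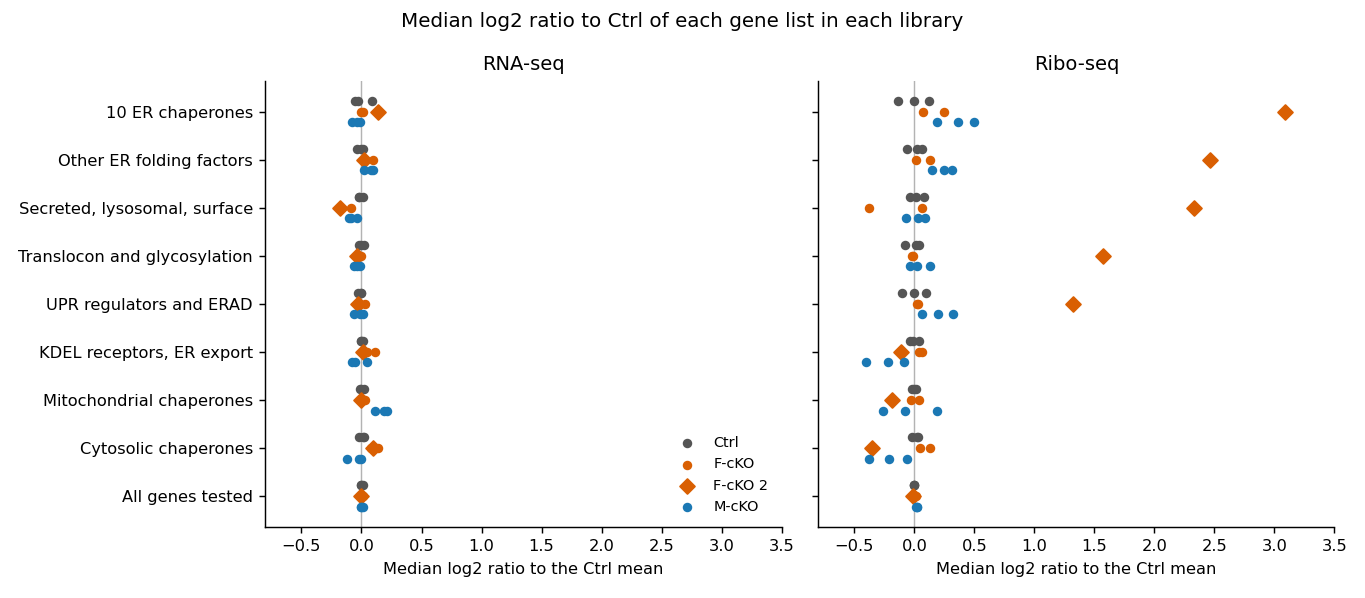
Median log2 ratio to the Ctrl mean of the 10 ER chaperones, 7 other gene lists and all genes in every library (cell type markers are not plotted), for RNA-seq (left) and Ribo-seq (right), with a diamond for *F*-cKO replicate 2. In Ribo-seq the diamond lies at 3.09 for the 10 ER chaperones, 2.46 for other ER folding factors and 2.33 for secreted, lysosomal and surface proteins, and at -0.35 for cytosolic chaperones, while in RNA-seq it lies for the plotted lists between -0.18 and 0.14.

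Markers of other cell types were measured beside these values. The 6 endothelial markers summed to 89.1 RPKM in *F*-cKO replicate 2, compared with 4.64 to 9.71 RPKM in the other 8 Ribo-seq libraries. In that replicate, beside 21.3% of all genes, 6 of 6 of these markers were more than 2-fold above Ctrl. Their mRNA summed to 37.8 FPKM in RNA-seq *F*-cKO replicate 2, compared with 37.8 to 58.4 FPKM in the others. Meningeal and fibroblast markers summed to 44.2 RPKM (2.97 to 25.8 in the others) with 5 of 6 tested above 2-fold, and microglial markers to 24.7 RPKM (12.7 to 21.9 in the others) with 4 of 7 above 2-fold. In RNA-seq *F*-cKO replicate 2 both lists were the lowest of the 9 libraries, with 3.31 FPKM for meningeal markers (6.6 to 32.4 in the others) and 19.8 FPKM for microglial markers (21.8 to 39.3). No marker of these 3 lists was at 0 in every library. Within the lists of cortical cells, the log2 ratio in this library was 2.73 for *Slc1a3*, 2.03 for *Slc17a6* and 1.96 for *Slc17a7*, which encode membrane transporters. It was 0.97 for *Pax6*, 0.41 for *Sox2* and -0.08 for *Fezf2*, which encode nuclear factors, and -0.74 for *Fabp7*, which encodes a cytosolic lipid carrier. Of 4 cartilage markers, the collagen gene *Col2a1* had 8.62 RPKM there, against at most 1.16 in the others, and *Acan*, *Col9a1* and *Matn1* had 0.093, 0.137 and 0.0496 RPKM. Markers of the choroid plexus, a secretory epithelium, summed to 1140 RPKM there (215 to 1970 in the others), of which *Ttr* gave 1120, and 2 of 5 tested were above 2-fold, *Enpp2* with 2.46 and *Folr1* with 2.44 on the log2 scale. Their mRNA summed to 275 FPKM in RNA-seq *F*-cKO replicate 2 (71.9 to 804 in the others). Of other secretory cells, pancreatic acinar markers summed to 0.992 RPKM, with *Prss2* at 0 in every library, and plasma cell markers to 0.408 RPKM. Of 6 erythroid markers, *Hbb-y* had a log2 ratio of 5.77 and *Hba-x* of 3.75 and *Hbb-bt* of -1.31 in this library, compared with 5.13, 2.78 and 0.83 in *F*-cKO replicate 1. The erythroid list summed to 183 RPKM in replicate 2, the lowest of the 9 libraries (209 to 425 in the others), of which *Hbb-y* gave 23.4 and *Hba-x* 5.92 RPKM. Liver markers summed to 0.98 RPKM, compared with 0.895 to 17.8 RPKM in the others. The part of vessels, meninges, microglia, choroid plexus and blood in the chaperone footprints was not tested.

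The related lists were also counted in the tested comparisons. Of 32 other ER folding factors, 1 rose and 3 fell in RNA-seq *F*-cKO, 7 rose and 2 fell in RNA-seq *M*-cKO, and 3 rose and 0 fell in Ribo-seq *M*-cKO, with a median log2 change there of 0.23. Over all genes, 11.5% rose and 9.57% fell in the first of these comparisons, 15.5% and 14.1% in the second, and 7.13% and 7.5% in the third. In *M*-cKO footprints the KDEL receptor and ER export list had 0 of 17 higher and 4 lower, with a median of -0.31, among them the coat subunit genes *Sec24d* with -0.63 ± 0.11 (adjusted P = 0.0174, edgeR) and *Sec31a* with -0.37 ± 0.08 (adjusted P = 0.0296, edgeR), calls lost in 4 of 6 and 5 of 6 fits that left out 1 library (adjusted P up to 0.0856 and 0.121 in edgeR). The translocon and glycosylation list had 1 of 26 higher and 2 lower, with a median of 0.03. *Txndc5*, encoding another disulfide isomerase, had a log2 fold change of 0.46 ± 0.07 in *M*-cKO mRNA (adjusted P = 0.000454, edgeR), and *Serpinh1* one of 0.80 ± 0.18 in *M*-cKO footprints (adjusted P = 0.0285, edgeR). Of 23 tested regulators of the unfolded protein response and ERAD, 4 rose and 1 fell in RNA-seq *F*-cKO and 1 rose and 3 fell in RNA-seq *M*-cKO. *Ern1*, encoding the stress sensor IRE1, rose in *F*-cKO by 0.43 ± 0.11 (adjusted P = 0.0234, edgeR). This call was lost in edgeR with the replicate block (adjusted P = 0.0516) and without Ctrl replicate 1 (0.0713), Ctrl replicate 3 (0.0775), *F*-cKO replicate 2 (0.069) or *F*-cKO replicate 3 (0.056). *Xbp1*, whose mRNA IRE1 splices, had -0.33 ± 0.07 in *M*-cKO (adjusted P = 0.00505, edgeR). *Sesn2* mRNA rose in *M*-cKO by 0.98 ± 0.19 (adjusted P = 0.00304, edgeR) and its footprints by 0.79 ± 0.15 (adjusted P = 0.0183, edgeR). For TE in *M*-cKO, *Sec62* (0.63 ± 0.14, adjusted P = 0.0298) and *Sec63* (0.65 ± 0.15, adjusted P = 0.0377), encoding translocon partners that serve BiP-assisted import, were called higher by edgeR. Leaving out 1 library ended the TE call of *Sec62* in 8 of 12 fits (adjusted P up to 0.0881 in edgeR) and that of *Sec63* in 9 of 12 (up to 0.0975), and the footprint call of *Serpinh1* in 4 of 6 (up to 0.0886) and that of *Sesn2* in 3 of 6 (up to 0.0865). The mRNA calls of *Txndc5*, *Xbp1* and *Sesn2* in *M*-cKO held in all 6 such fits.

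The 10 genes varied together across libraries in part. Over the 9 RNA-seq libraries Pearson's r of each gene with the mean of the other 9 was 0.871 for *Hspa5*, 0.802 for *Calr* and 0.787 for *Pdia3*, but -0.167 for *Pdia4* and -0.448 for *P4hb*, the genes that were higher in all *M*-cKO libraries than in Ctrl. Over the 8 Ribo-seq libraries without *F*-cKO replicate 2 it lay between 0.558 for *Sdf2l1* and 0.976 for *Hspa5*. Outside the 10, the genes whose log2 level was most like their mean were *Mpp6* (r = 0.88), *Madd* and *Zbtb40* in RNA-seq over 9 libraries and 10406 genes. In Ribo-seq they were *Scg3* (r = 0.996), *Prkcsh*, *Tor1aip1*, *Ssr1* and *Igfbp2* over 9 libraries and 8973 genes, a measure that includes *F*-cKO replicate 2. Over the 8 libraries without it, an order added after the data were seen, r was 0.949 for *Scg3* (rank 14) and 0.814 to 0.859 for the other 4 (ranks 210 to 367), and *Pacsin2* (r = 0.984), *Rps15* and *Nfe2l2* came first. These correlations describe libraries that share their depth and scaling and carry no test.

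Some of the counts may include reads of neighbours. In the RefSeq models *Hspa5* overlaps *Rabepk*, *Pdia3* overlaps *Catsper2*, *Pdia4* holds *Mir704*, *Pdia6* overlaps *Atp6v1c2* and *Dnajb11* overlaps *Gm30505*, and whether the counting used strand is not given in the sources used here. *Hsp90b1*, *Calr*, *Canx*, *P4hb* and *Sdf2l1* overlap no other model.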

How the data were processed

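The sample labels gave the group of each RNA-seq and Ribo-seq library. For RNA-seq, the authors aligned reads with HISAT2 2.0.5 and deposited read counts and FPKM per gene, and the tool and annotation behind them are not given in the sources used here. For Ribo-seq (cycloheximide, RNase I), the authors mapped fragments with TopHat2, counted them with HTSeq and deposited counts and RPKM per gene. The submitters' processing notes name mm10 and DESeq2 1.14.1. In the deposited Ribo-seq counts, 40490 of 54838 genes are blank in 8 of 9 libraries and were left out.

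Tests used edgeR 4.0.16 under R 4.3.3 (filterByExpr with minimum count 10 and minimum total 15, TMM scaling, quasi-likelihood test, Benjamini-Hochberg adjustment over all genes tested, called at an adjusted P below 0.05). Each comparison used its own 6 libraries, and TE was tested as an assay by genotype interaction over 12 libraries, for genes passing the filter in both assays. The scripts were tested on simulated data. Alternatives were DESeq2 1.42.0, RLE scaling, no filter, all 9 libraries, replicate blocks, protein-coding genes only and each library left out. Promoters came from RefSeq (GRCm38.p6) and protein sequences were not used here.

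The 10 genes and all lists were chosen with earlier results of these data known. Named list genes are at most the 2 with the smallest adjusted P per direction and comparison among those called without overlap, and the 3 highest and 1 lowest in Ribo-seq *F*-cKO replicate 2. The transcription factors, *Col2a1*, the other cartilage genes and the translocon list genes *Sec61b*, *Sec61g*, *Spcs2* and *Dad1* were named after their values were seen. Not all genes that these rules name are printed, and some marker genes are not reported here. P values measure the spread between libraries, which may be technical where libraries share animals. The RNA-seq and Ribo-seq libraries with the same number deviated together in Ctrl and *M*-cKO (correlations of 0.106 to 0.329 in 6 pairs). In *F*-cKO the correlations were -0.016, -0.0495 and -0.263 for replicates 1, 2 and 3. Libraries with the same number were also fitted as pairs, but within an assay the numbers did not pair the groups.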

Additional observations from a re-analysis of the deposited data

Results flagged for a closer look

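In the edgeR fit, *Calr* was the gene of the 10 whose change in *M*-cKO differed between the assays by a test of the difference itself. Its Ribo-seq change minus its RNA-seq change in *M*-cKO was 0.59 on the log2 scale (edgeR interaction, adjusted P = 0.0462). Fitted with RNA-seq and Ribo-seq libraries of the same number as pairs, an alternative added after the data were seen, the value was 0.59 with an adjusted P of 0.0235, and over all its alternatives the adjusted P lay between 0.0104 and 0.126, above 0.05 in 12 of 18. Other members were called under other settings: *Hsp90b1* and *Dnajb11* with DESeq2 (adjusted P = 0.045 and 0.0289), and *Hsp90b1*, *Pdia4* and *Dnajb11* without Ribo-seq Ctrl replicate 3 (adjusted P = 0.0445, 0.0448 and 0.044 in edgeR). The direction was that of 3 of 3 *M*-cKO Ribo-seq libraries, which lay above all Ctrl libraries.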

How the results depend on the processing

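In RNA-seq *M*-cKO, 2 members were called higher and 2 lower without the filter on low counts, and leaving out 1 library gave 0 to 2 lower. In *M*-cKO against *F*-cKO, 1 member was called higher with all 9 libraries in 1 fit, and 1 to 3 lower when 1 library was left out. In Ribo-seq *M*-cKO, 0 members were called with all 9 libraries (35 genes in all, compared with 2093), 1 with the other 8 after *F*-cKO replicate 2 was taken out (1261 genes, an alternative added after the data were seen), 1 with the replicate block and 0 to 1 when 1 library was left out (177 to 2547 genes). For TE in *M*-cKO, DESeq2 called 3 members (1037 genes, compared with 405), RLE scaling and no filter called 0, and leaving out 1 library gave 0 to 4 (65 to 1054 genes). Leaving out RNA-seq Ctrl replicate 3 or *F*-cKO replicate 2 moved the RNA-seq *F*-cKO calls from 3576 genes to 1543 and 1960, with 0 members called in each, and those between the knockouts from 4599 to 2767 without *F*-cKO replicate 2. The cause of these shifts was not tested.

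Fold changes near 0 turned sign: *Calr* in RNA-seq *F*-cKO (-0.00) was 0.00 to 0.01 under other scaling, no filter, DESeq2 or all 9 libraries and -0.05 to 0.05 when 1 library was left out, *Hspa5* in RNA-seq *M*-cKO (-0.01) was 0.00 to 0.01 and -0.06 to 0.10, *Pdia3* was -0.03 to 0.07, -0.04 to 0.06 and -0.06 to 0.04 in the 3 RNA-seq comparisons, *Sdf2l1* -0.04 to 0.14 in *F*-cKO and *Dnajb11* -0.03 to 0.06 between the knockouts. None of these was called in any fit.

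With the replicate number as a block, the RNA-seq *F*-cKO calls fell to 2130 genes and the Ribo-seq *M*-cKO calls to 1319, and 1 of the 3 Ribo-seq calls was kept. Deviations of libraries with the same number correlated between -0.132 and 0.15 in RNA-seq and between -0.256 and 0.159 in Ribo-seq. The median change of the members in Ribo-seq *F*-cKO was 1.83 and became 1.00 with the block, 0.15 without replicate 2 and up to 2.35 without another library. For TE in *F*-cKO it was 1.73, and 1.36 with the block, 0.91 with library pairs and 0.10 to 2.07 when 1 library was left out. Leaving out the 10 genes with most counts moved the share of the members from 0.189% to 0.198% in RNA-seq *M*-cKO and from 0.0573% to 0.0646% in Ribo-seq Ctrl.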

Other observations

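Chaperones that are not made at the ER were counted in RNA-seq as well. Of 24 cytosolic chaperones 11 were lower and 1 higher in *M*-cKO than in *F*-cKO, beside 14.3% and 13.1% of all genes, and of 7 mitochondrial chaperones 0 were lower and 3 higher. Compared to Ctrl, 2 cytosolic chaperones were higher and 5 lower in *M*-cKO, beside 15.5% and 14.1% of all genes. In *F*-cKO 3 were higher and 0 lower, beside 11.5% and 9.57% of all genes. Between the knockouts 4 of 7 meningeal markers were also higher in *M*-cKO (median 1.35) and 3 of 7 radial glia markers lower, and their part in these counts was not tested. *Cct4*, a subunit of the chaperonin that folds actin and tubulin, had log2 fold changes of -0.37 ± 0.06 in *M*-cKO mRNA against Ctrl (adjusted P = 0.000842) and -0.72 ± 0.10 in footprints (adjusted P = 0.00923), while *Dnajb1*, a heat shock J-domain protein, rose in mRNA by 0.56 ± 0.08 (adjusted P = 0.000388), all by edgeR. Against Ctrl, 3 of 7 mitochondrial chaperones rose in *M*-cKO mRNA, beside 15.5% of all genes, with 0.43 ± 0.08 for *Grpel1* (adjusted P = 0.00174, edgeR) and 0.35 ± 0.07 for *Trap1* (adjusted P = 0.00266, edgeR). *Hspe1* footprints had -0.68 ± 0.13 in *M*-cKO (adjusted P = 0.0196, edgeR). When 1 library was left out, the footprint calls of *Hspe1* and *Cct4* were lost in 3 of 6 and 1 of 6 fits (adjusted P up to 0.0854 and 0.0568 in edgeR), and the mRNA calls of *Cct4*, *Dnajb1*, *Grpel1* and *Trap1* in 0 of 6.

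Of 25 secreted, lysosomal and surface proteins 11 fell and 0 rose in RNA-seq *F*-cKO, with -0.53 ± 0.06 for the tetraspanin *Cd81* (adjusted P = 0.00293, edgeR) and -0.42 ± 0.06 for the protease inhibitor *Cst3* (adjusted P = 0.00342, edgeR), and 9.57% of all genes were called lower. In the same comparison 3 of 7 meningeal markers (median -1.17) and 2 of 6 endothelial markers were called lower, *Cldn5* with -0.63 ± 0.09 (adjusted P = 0.00389, edgeR) and *Esam* with -0.57 ± 0.11 (adjusted P = 0.00839, edgeR), and their part in these values was not tested. In *M*-cKO 8 of the 25 fell and 1 rose, beside 14.1% and 15.5% of all genes, with a median of -0.08 and 9 above 0. The mRNA of the neuronal membrane glycoprotein gene *Gpm6a* had -0.55 ± 0.07 (adjusted P = 0.00025, edgeR) and its footprints -0.99 ± 0.17 (adjusted P = 0.0163, edgeR). The lysosomal protease *Ctsd* rose by 0.27 ± 0.07 (adjusted P = 0.0128, edgeR). Leaving out 1 library ended the footprint call of *Gpm6a* in 3 of 6 fits (adjusted P up to 0.0755 in edgeR) and the mRNA call of *Ctsd* in 1 of 6 (0.0565).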
